A study of Homo sapiens with 6 samples.

Results

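The genes of cholesterol and fatty acid synthesis were followed in SCC-9 cells after an siRNA against the Ki67 transcript that includes exon 7. SCC-9 is an established human line derived from a tongue squamous carcinoma. The group was set by gene symbol and holds 35 of the 25349 genes in the count table. It consists of 7 enzymes of the mevalonate pathway, 11 enzymes from squalene to cholesterol, 6 genes of sterol sensing and transport, 8 genes of fatty acid and glycerolipid synthesis, and 3 genes of sterol efflux. All 35 passed the filter on low counts that left 14661 genes for testing. SCC-9 cells received 10 nM of an siRNA against exon 7 of MKI67 (siE7) or of a nonspecific siRNA (siNC), delivered with Lipofectamine 3000 on days 0 and 2. The cells were collected for RNA on day 4, giving 3 libraries per group. Both groups were transfected and grown in the same medium with 10% fetal bovine serum and hydrocortisone. The methods list 3 siRNAs against exon 7 and do not name the one used here. Nothing says that the libraries of a group came from separate cultures, so the p-values measure only the spread between these libraries, which may be technical.

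Cholesterol is built from acetyl-CoA through mevalonate, the isoprenoid diphosphates and squalene. Fatty acids are built from the same acetyl-CoA through malonyl-CoA, and are then elongated and desaturated. Both branches are known targets of the SREBP transcription factors, whose genes are SREBF1 and SREBF2. SCAP escorts the SREBP precursors from the endoplasmic reticulum to the Golgi apparatus, where proteases release their active part, and the INSIG proteins hold SCAP back when sterols are plentiful. SREBP-2 is best known for driving the sterol genes and SREBP-1 for driving the fatty acid genes. Oxysterols act in the opposite sense through the LXR receptors, which induce the exporters ABCA1 and ABCG1, the ubiquitin ligase MYLIP and, in many cells, SREBF1. Growing epithelial cells use both branches to make membranes.

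The libraries held between 25608192 and 29550264 counts on genes. Levels are given as CPM, the counts relative to a library size corrected by TMM. Differences between siE7 and siNC were tested with the quasi-likelihood method of edgeR, and p-values were adjusted by Benjamini-Hochberg over all genes tested. A gene was called at an adjusted p under 0.05, and was a DEG if its log2 fold change was also beyond 1. MKI67 stood at 1072, 1029 and 1077 CPM in the siNC libraries and 112, 124 and 108 CPM in the siE7 libraries (log2 fold change -3.21, SE 0.11, adjusted p = 6.71e-08), so the targeted transcript was depleted in each siE7 library. The epithelial markers of the line were high in all 6 libraries, and their summed level ran from 24868 to 26378 CPM with siNC and from 22608 to 28994 CPM with siE7. Of these 8 markers, 5 were called lower and 1 higher. Adipocyte and hepatocyte genes were near 0, with a summed level of at most 1.70 CPM over PLIN1 and ALB. Fibroblast markers summed to 16.4 to 24.0 CPM, most of it COL1A1, with DCN, LUM and PDGFRA near 0, and endothelial markers to at most 0.492 CPM. CD14, the immune marker measured, ran from 1.34 to 3.52 CPM. The part of these other cell types in the results was not tested.

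The library siE7 1 stood apart from the others. A comparison of its counts with those of siE7 2 and siE7 3 over genes gave a chi-square per degree of freedom of 61.3 and 72.8, against 5.59 to 6.22 for the other pairs within a group. The difference between siE7 1 and the mean of siE7 2 and siE7 3 followed the GC content of the transcript, with r = 0.84 across the 35 genes and r = 0.68 across 14645 tested genes, given as a description over genes that share these libraries. Results are therefore given with all 6 libraries, and where a call depends on it, also without siE7 1 or after removal of the GC trend from each library, an alternative chosen after seeing the data. What set siE7 1 apart was not tested.

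Promoters are shown for 4 genes so that known motifs can be set beside the values, with SCD for the fatty acid genes, INSIG1 for the genes that rose, SREBF2 for the sterol regulatory element and ABCA1 for the gene that fell most. Each runs from 250 bases before to 50 bases after a RefSeq transcription start (assembly GRCh38.p14), 5′ to 3′ on the strand of the gene. Capitals mark motif matches on either strand. SCD lies at chr10:100346983-100347282 on the plus strand, INSIG1 at chr7:155297628-155297927 on the plus strand, SREBF2 at chr22:41832855-41833154 on the plus strand and ABCA1 at chr9:104928106-104928405 on the minus strand.
SCD: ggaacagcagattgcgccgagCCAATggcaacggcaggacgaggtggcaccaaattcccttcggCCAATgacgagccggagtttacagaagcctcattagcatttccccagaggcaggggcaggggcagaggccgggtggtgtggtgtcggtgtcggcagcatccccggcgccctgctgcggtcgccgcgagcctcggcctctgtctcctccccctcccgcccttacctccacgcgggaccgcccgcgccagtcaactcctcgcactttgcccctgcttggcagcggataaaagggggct
INSIG1: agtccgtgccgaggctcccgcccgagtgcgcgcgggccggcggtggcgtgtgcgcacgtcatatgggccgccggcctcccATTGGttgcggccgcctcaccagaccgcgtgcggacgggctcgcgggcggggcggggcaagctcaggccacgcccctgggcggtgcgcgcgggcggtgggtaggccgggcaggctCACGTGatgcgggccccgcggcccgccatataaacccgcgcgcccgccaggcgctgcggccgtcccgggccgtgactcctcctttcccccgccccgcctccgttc
SREBF2: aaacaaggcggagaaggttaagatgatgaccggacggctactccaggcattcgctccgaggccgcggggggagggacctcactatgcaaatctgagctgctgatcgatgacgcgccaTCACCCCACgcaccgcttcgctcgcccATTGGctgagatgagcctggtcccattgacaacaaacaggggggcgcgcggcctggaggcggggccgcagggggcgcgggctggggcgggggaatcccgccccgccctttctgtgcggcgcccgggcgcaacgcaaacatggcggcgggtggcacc
ABCA1: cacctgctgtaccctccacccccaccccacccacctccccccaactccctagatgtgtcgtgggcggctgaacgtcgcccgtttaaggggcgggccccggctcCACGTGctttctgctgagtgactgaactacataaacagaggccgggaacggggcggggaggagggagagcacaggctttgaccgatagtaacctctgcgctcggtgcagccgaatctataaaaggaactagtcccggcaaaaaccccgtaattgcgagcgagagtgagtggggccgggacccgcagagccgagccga

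The motifs searched were the sterol regulatory element TCACNCCAC, the E-box CACGTG, the CCAAT box, which NF-Y is known to bind beside SREBP sites, and the LXR element, a direct repeat of AGGTCA with a spacing of 4 bases, each on both strands and with no letters shared between different motifs. A promoter window was given for 30 of the 35 genes, and ABCG1, ACAT2, FASN, FDFT1 and SQLE had none. The sterol regulatory element was found in SREBF2 alone, starting at -133 from the start site, and in 1.39% of the 27305 genes with a window. CCAAT was found in 21 of the 30 genes, against 39.7% of all genes. It stood in 5 of 6 mevalonate pathway windows, 8 of 9 from squalene to cholesterol, 3 of 6 of sterol sensing and transport, 4 of 7 of fatty acid synthesis and 1 of 2 of efflux, counted by gene. The E-box was found in ABCA1, INSIG1, LSS, SC5D and SCAP, against 8.77% of all genes. The exact repeat of the LXR element was found in none of the 30, against 0.0256% of all genes. Only 7 of the 27305 genes match it, so a result of none says little about these genes. In the sequences shown, SCD has CCAAT at -229 and -186 from the start site, INSIG1 has it at -170 and the E-box at -55, SREBF2 has CCAAT at -106, and ABCA1 has the E-box at -147. A match is a description of these letters in these windows. Variants of the motifs and sites outside the windows were not searched, so a missing match does not show that a gene lacks the element.

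With all 6 libraries, siE7 lowered the 7 fatty acid genes from ACLY to FADS2 together. Of the 18 sterol enzymes 14 had no call, as most genes tested had none. Without siE7 1, 7 sterol enzymes were called lower and 4 higher, against 29.5% and 28.9% of all genes tested. siE7 raised both INSIG genes and moved ABCA1 and MYLIP of the efflux class in opposite directions. Of the 35 genes, 14 were called lower and 3 higher, 40.0% and 8.57%. Among all genes tested, 34.0% were called, 16.0% lower and 18.0% higher. The called genes numbered 7 of 8 in fatty acid and glycerolipid synthesis, all lower, and 4 of 18 among the sterol enzymes, all lower. No fatty acid gene was higher at an unadjusted p under 0.05, or by DESeq2. In sterol sensing and transport 2 were lower and 2 higher of 6, and in efflux 1 was lower and 1 higher of 3. The median log2 fold change was -0.66 for fatty acid and glycerolipid synthesis and 0.08 for all genes tested. For sterol sensing and transport it was -0.15 and for efflux -0.05, while 9 of the 18 sterol enzymes lay below 0 and 9 above. ABCA1 was the only DEG among the lower genes, and INSIG1 and MYLIP were the DEGs among the higher ones, against 4.84% of all genes tested for a lower DEG and 7.38% for a higher one. In bulk RNA, fewer cells of a type and less RNA per cell cannot be told apart.

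**Figure D1:**
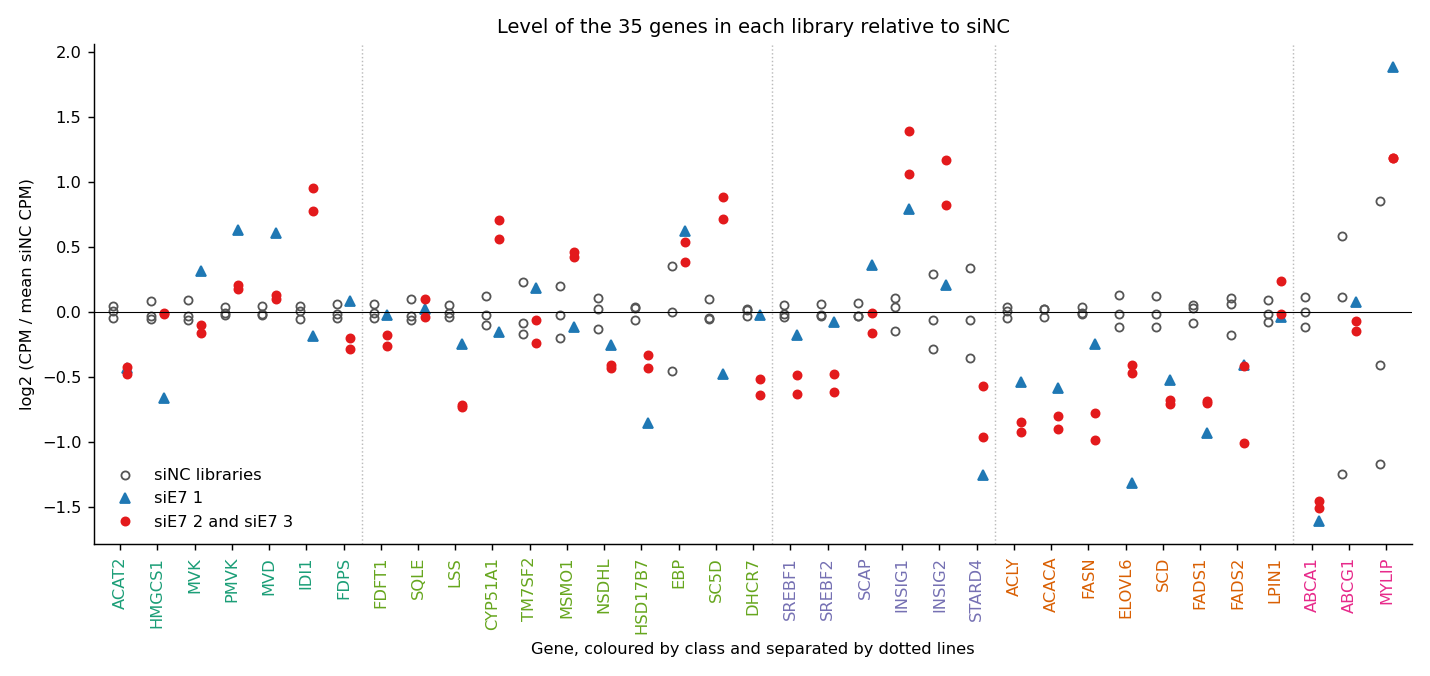
The level of each gene in each library is plotted as the log2 ratio of its CPM to the mean CPM of the 3 siNC libraries, with genes on the x axis in the order of their class. Open circles are siNC libraries, triangles are siE7 1 and filled circles are siE7 2 and siE7 3. From ACLY to FADS2 each siE7 library sits below each siNC library, while IDI1, CYP51A1 and SC5D have siE7 1 below and siE7 2 and siE7 3 above the siNC libraries.

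The siE7 libraries lay wholly below the siNC libraries in 15 of the 35 genes and wholly above in 5, against 22.7% and 24.9% of all genes tested. Without siE7 1, 18 genes were called lower and 7 higher, against 29.5% and 28.9% of all genes tested in that fit. With the GC trend removed, 17 were lower and 7 higher, against 26.1% and 24.5%. When library totals replaced the TMM scaling, the median of all genes tested moved by 0.17 on the log2 scale, 11.1% of genes were lower and 27.5% higher, and 8 of the 35 were lower and 5 higher. Relative to the median of all genes, the median of the fatty acid class was -0.74 under either scaling. For the sterol enzymes that distance was -0.08, also under either scaling. A change of scaling moves all genes by nearly the same amount, so these distances could hardly differ and do not check the calls.

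**Figure D2:**
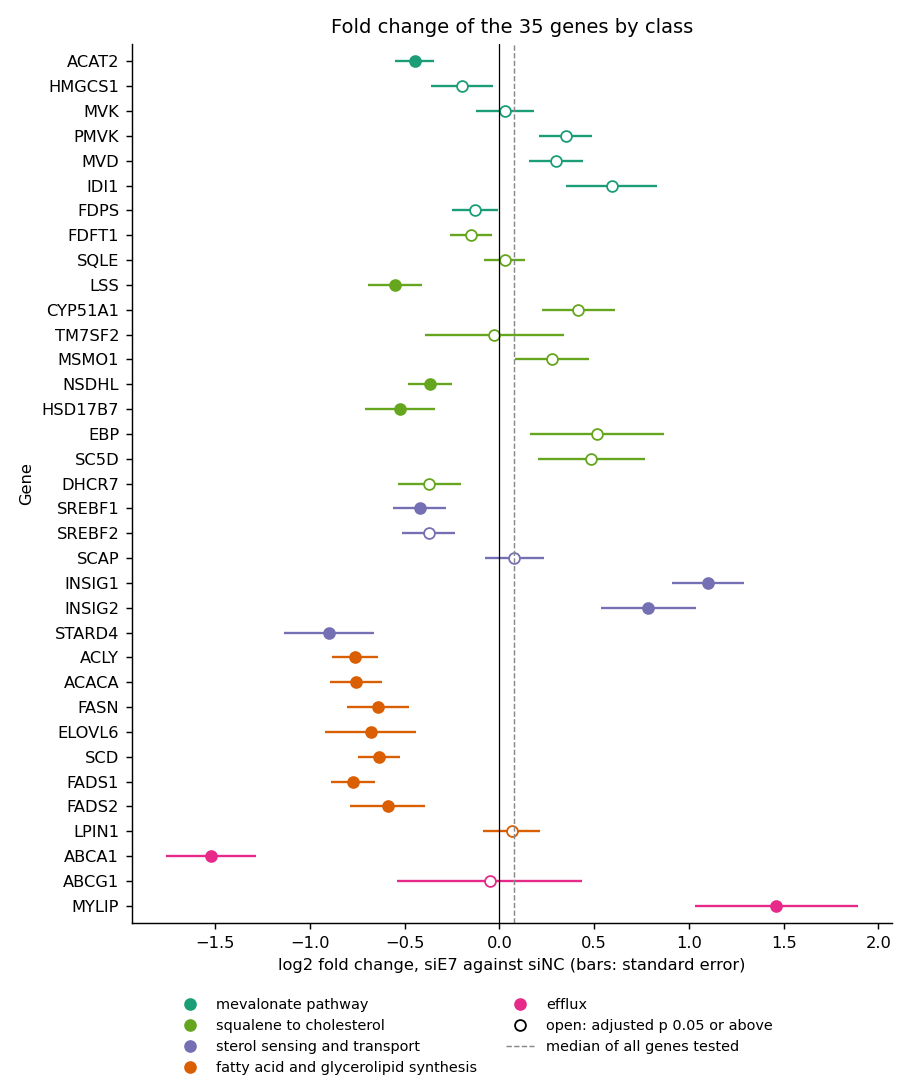
The log2 fold change of siE7 against siNC is plotted on the x axis for the 35 genes, coloured by class, with the standard error as bars. Filled points were called at an adjusted p under 0.05, and the dashed line is the median of all genes tested at 0.08. The fatty acid genes from ACLY to FADS2 lie between -0.77 and -0.59, while the sterol enzymes run from -0.55 to 0.59.

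The transcripts of the 7 fatty acid genes in the group, from ACLY to FADS2, fell. Of 20 further genes of elongation, desaturation and activation, 11 had no call and 3 were higher, given below with the shares of all genes. ACLY, which cleaves citrate to give cytosolic acetyl-CoA for both branches, stood at 299.8, 318 and 311 CPM in the siNC libraries and 212, 172 and 163 CPM in the siE7 libraries. It fell by 41.1% (log2 fold change -0.76, SE 0.12, adjusted p = 0.000766), and the groups did not overlap. ACACA, the carboxylase that makes malonyl-CoA, stood at 27.7, 27.7 and 26.6 CPM in the siNC libraries and 18.2, 15.7 and 14.6 CPM in the siE7 libraries, again with no overlap (log2 fold change -0.76, SE 0.14, adjusted p = 0.00158). FASN, the synthase of palmitate, stood at 363, 365 and 376 CPM in the siNC libraries and 309, 214 and 186 CPM in the siE7 libraries (log2 fold change -0.64, SE 0.16, adjusted p = 0.0116). In FASN the library siE7 1 was the highest of the siE7 group but still below the lowest siNC library, and without it the log2 fold change was -0.94 (adjusted p = 2.33e-16).

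The genes of the group that lengthen and desaturate the acids fell by a similar amount. ELOVL6, the elongase that acts on palmitate, stood at 6.28, 7.45 and 6.74 CPM in the siNC libraries and 2.73, 5.14 and 4.91 CPM in the siE7 libraries (log2 fold change -0.68, SE 0.24, adjusted p = 0.0473). siE7 1 was the lowest of its libraries. SCD, which places the double bond of oleate and was second to ACLY among the fatty acid genes in siNC level per length, stood at 360.2, 398 and 336 CPM in the siNC libraries and 254, 227 and 223 CPM in the siE7 libraries. It fell by 35.6% without overlap (log2 fold change -0.64, SE 0.11, adjusted p = 0.00141), and it has an annotated pseudogene copy. FADS1 and FADS2 desaturate polyunsaturated acids and lie side by side on chromosome 11, where their annotated spans overlap. FADS1 stood at 115, 125 and 127 CPM in the siNC libraries and 64.0, 75.7 and 75.0 CPM in the siE7 libraries (log2 fold change -0.77, SE 0.11, adjusted p = 0.000471). FADS2 stood at 8.67, 10.6 and 10.2 CPM in the siNC libraries and 7.39, 7.35 and 4.87 CPM in the siE7 libraries (log2 fold change -0.59, SE 0.20, adjusted p = 0.04), with its highest siE7 library below its lowest siNC library. The use of strand in counting is not given in the sources used here, so reads from the shared span of FADS1 and FADS2 cannot be assigned with certainty. LPIN1, the phosphatidate phosphatase of triglyceride and phospholipid synthesis, was the member of the class with no call. Its levels were 12.3, 12.8 and 13.8 CPM in the siNC libraries and 12.6, 15.3 and 12.8 CPM in the siE7 libraries, with overlapping groups (log2 fold change 0.06, SE 0.15, adjusted p = 0.767).

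The 5 calls of ACLY, ACACA, FASN, SCD and FADS1 held in each of the 14 alternatives with a fit, with adjusted p of at most 0.0492, the highest being that of FASN. The calls of ELOVL6 and FADS2 did not hold without siNC 1 (adjusted p = 0.0874 and 0.0639), without siNC 2 (0.15 and 0.141 as adjusted p) or without siNC 3 (adjusted p = 0.114 and 0.125). The call of FADS2 was also lost without siE7 2 (adjusted p = 0.0509) and without siE7 3 (adjusted p = 0.148). With library totals both were lost (adjusted p = 0.161 for ELOVL6 and 0.106 for FADS2). ELOVL6 was also not called with upper-quartile scaling (adjusted p = 0.0515) or with at least 10 counts in every library (adjusted p = 0.0568). Both were called without siE7 1 and with the GC trend removed. All fold changes of these 7 genes stayed negative.

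The enzymes of the mevalonate pathway held 1 call among 7 genes, 14.3% lower against 16.0% of all genes tested. ACAT2, the thiolase that joins acetyl-CoA units, stood at 126, 119 and 123 CPM in the siNC libraries and 90.9, 91.1 and 87.8 CPM in the siE7 libraries. It fell without overlap (log2 fold change -0.45, SE 0.10, adjusted p = 0.00626) and kept its call in each alternative with a fit. Its span overlaps the coding genes SOD2 and TCP1 on the other strand, and the use of strand in counting is not given. HMGCS1, the synthase of the next step, stood at 79.8, 73.3 and 72.4 CPM in the siNC libraries and 47.4, 74.6 and 74.3 CPM in the siE7 libraries, where siE7 1 alone lay below the siNC range (log2 fold change -0.20, SE 0.16, adjusted p = 0.37). Without siE7 1 it was not called either (log2 fold change -0.07, SE 0.06, adjusted p = 0.33), and with the GC trend removed it was called lower (log2 fold change -0.32, SE 0.07, adjusted p = 0.000939). MVK, PMVK and MVD carry out the phosphorylations and the decarboxylation that follow. MVK stood at 22.4, 23.0 and 25.03 CPM in the siNC libraries and 29.1, 20.9 and 21.8 CPM in the siE7 libraries (log2 fold change 0.03, SE 0.15, adjusted p = 0.892), with siE7 1 above and the other siE7 libraries below the siNC range.

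PMVK stood at 39.4, 40.7 and 38.9 CPM in the siNC libraries and 61.2, 44.8 and 45.7 CPM in the siE7 libraries, with all siE7 libraries above the siNC libraries, siE7 1 the highest and no call (log2 fold change 0.35, SE 0.14, adjusted p = 0.0726). MVD showed the same order with 49.7, 51.8 and 49.4 CPM in the siNC libraries and 76.6, 55.1 and 53.8 CPM in the siE7 libraries (log2 fold change 0.30, SE 0.14, adjusted p = 0.134). Neither was called without siE7 1 (PMVK log2 fold change 0.13, SE 0.07, adjusted p = 0.132, and MVD log2 fold change 0.05, SE 0.07, adjusted p = 0.523), while both were called higher with the GC trend removed and with library totals. IDI1, the isomerase that gives dimethylallyl diphosphate, stood at 16.3, 15.6 and 16.7 CPM in the siNC libraries and 14.2, 27.8 and 31.3 CPM in the siE7 libraries. Its siE7 libraries fell on both sides of the siNC range (log2 fold change 0.59, SE 0.24, adjusted p = 0.0755), and without siE7 1 it was called higher (log2 fold change 0.81, SE 0.09, adjusted p = 2.49e-09). FDPS, which makes farnesyl diphosphate for sterols and for protein prenylation, stood at 152, 164 and 155 CPM in the siNC libraries and 166, 129 and 136 CPM in the siE7 libraries (log2 fold change -0.13, SE 0.12, adjusted p = 0.44), and without siE7 1 it was called lower (log2 fold change -0.30, SE 0.06, adjusted p = 2.03e-05). IDI1 and FDPS have annotated pseudogene copies that can share reads with them.

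From squalene to cholesterol 3 of 11 enzymes were called, all lower, 27.3% against 16.0% of all genes tested. FDFT1, the squalene synthase that commits farnesyl diphosphate to sterols, stood at 115, 124 and 118 CPM in the siNC libraries and 117, 98.9 and 105 CPM in the siE7 libraries and had no call (log2 fold change -0.15, SE 0.11, adjusted p = 0.311). Without siE7 1 it was called lower (log2 fold change -0.28, SE 0.06, adjusted p = 7.73e-05). SQLE, the squalene epoxidase, stood at 119, 107 and 109 CPM in the siNC libraries and 113, 119.8 and 109 CPM in the siE7 libraries in overlapping groups. Its log2 fold change of 0.03 (SE 0.11, adjusted p = 0.862) was near 0, and it ran from -0.03 to 0.20 over the alternatives, with no call in any. LSS, the lanosterol synthase that closes the ring system, stood at 65.1, 69.6 and 66.6 CPM in the siNC libraries and 56.4, 40.9 and 40.3 CPM in the siE7 libraries. It fell by 31.7% without overlap (log2 fold change -0.55, SE 0.14, adjusted p = 0.0121), and its call was lost only without siNC 2 (adjusted p = 0.0582).

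CYP51A1, the demethylase of lanosterol, stood at 36.1, 34.4 and 40.1 CPM in the siNC libraries and 33.1, 54.5 and 60.0 CPM in the siE7 libraries. siE7 1 lay below and siE7 2 and siE7 3 above all siNC libraries (log2 fold change 0.42, SE 0.19, adjusted p = 0.114), and without siE7 1 it was called higher (log2 fold change 0.57, SE 0.08, adjusted p = 3.65e-08). Its span overlaps 4 annotated genes, of which 3 are coding, AKAP9 among them, and 2 lie on its own strand. It also has annotated pseudogene copies, so the share of reads assigned to it is uncertain. MSMO1, NSDHL and HSD17B7 remove the methyl groups that remain on the sterol ring. MSMO1 stood at 10.8, 9.25 and 8.18 CPM in the siNC libraries and 8.67, 12.9 and 12.6 CPM in the siE7 libraries (log2 fold change 0.28, SE 0.19, adjusted p = 0.296) and was called higher without siE7 1 (log2 fold change 0.38, SE 0.13, adjusted p = 0.0125). NSDHL stood at 88.1, 104 and 97.9 CPM in the siNC libraries and 80.8, 72.6 and 71.5 CPM in the siE7 libraries and fell (log2 fold change -0.37, SE 0.11, adjusted p = 0.0289). HSD17B7 stood at 8.30, 8.89 and 8.82 CPM in the siNC libraries and 4.79, 6.41 and 6.90 CPM in the siE7 libraries and fell (log2 fold change -0.52, SE 0.18, adjusted p = 0.0475), with the adjusted p near the threshold and an annotated pseudogene copy. Of these successive enzymes, NSDHL and HSD17B7 thus fell while MSMO1 had no call over the 6 libraries.

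The calls of NSDHL and HSD17B7 were lost without siNC 1 (adjusted p = 0.0518 and 0.104), without siNC 2 (adjusted p = 0.144 and 0.138), without siNC 3 (adjusted p = 0.111 and 0.134) and without siE7 2 (adjusted p = 0.0908 and 0.0832). NSDHL was also not called without siE7 3 (adjusted p = 0.0903). With library totals neither was called (adjusted p = 0.114 and 0.189). HSD17B7 also missed the threshold with upper-quartile scaling, with at least 10 counts in every library and with the replicate block (adjusted p = 0.0552, 0.0569 and 0.056). SC5D, the desaturase of lathosterol, stood at 8.38, 8.41 and 9.32 CPM in the siNC libraries and 6.24, 14.2 and 16.1 CPM in the siE7 libraries, with siE7 1 on the other side of the siNC range (log2 fold change 0.48, SE 0.28, adjusted p = 0.209). Without siE7 1 it was called higher (log2 fold change 0.74, SE 0.12, adjusted p = 2.94e-06). DHCR7, the reductase of a last step to cholesterol, stood at 28.6, 28.7 and 27.6 CPM in the siNC libraries and 27.8, 18.2 and 19.7 CPM in the siE7 libraries (log2 fold change -0.37, SE 0.17, adjusted p = 0.105), and without siE7 1 it was called lower (log2 fold change -0.64, SE 0.09, adjusted p = 1.82e-07). TM7SF2, a sterol reductase, and EBP, the sterol isomerase, were close to the limit of detection with 15 to 23 and 13 to 33 counts per library. Their log2 fold changes were -0.03 (SE 0.37) and 0.52 (SE 0.35), so no difference was detectable at this depth. Each overlaps another coding gene on its own strand, so the share of reads assigned to each is uncertain.

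Across the 18 sterol enzymes edgeR with all 6 libraries called 4 lower and 0 higher, against 16.0% and 18.0% of all genes tested. At an unadjusted p under 0.05 there were 5 lower and 2 higher, and DESeq2 called 4 lower and 0 higher. Without siE7 1 there were 7 lower (ACAT2, FDPS, FDFT1, LSS, NSDHL, HSD17B7 and DHCR7) and 4 higher (IDI1, CYP51A1, MSMO1 and SC5D), against 29.5% and 28.9% of all genes in that fit. With the GC trend removed 6 were lower (ACAT2, HMGCS1, LSS, NSDHL, HSD17B7 and DHCR7) and 4 higher (PMVK, MVD, IDI1 and CYP51A1). In that fit 26.1% of all genes were lower and 24.5% higher. FDPS, FDFT1, MSMO1 and SC5D had no call in it (adjusted p = 0.121, 0.0672, 0.257 and 0.0712). Without siNC 2, 1 sterol enzyme remained lower, and without siE7 2, siNC 1 or siNC 3 there were 2. The counts of both classes depended on which libraries entered, and so did the share of all genes called lower. Of the fatty acid genes 7 were lower without siE7 1, 6 without siE7 2 or siE7 3, and 5 without siNC 1, siNC 2 or siNC 3. Of all genes tested, 29.5% were lower without siE7 1, 12.3% without siE7 2 and 12.9% without siE7 3. Without siNC 1, siNC 2 or siNC 3 that share was 10.5%, 10.5% and 10.3%. The difference between these classes was not tested.

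**Figure D3:**
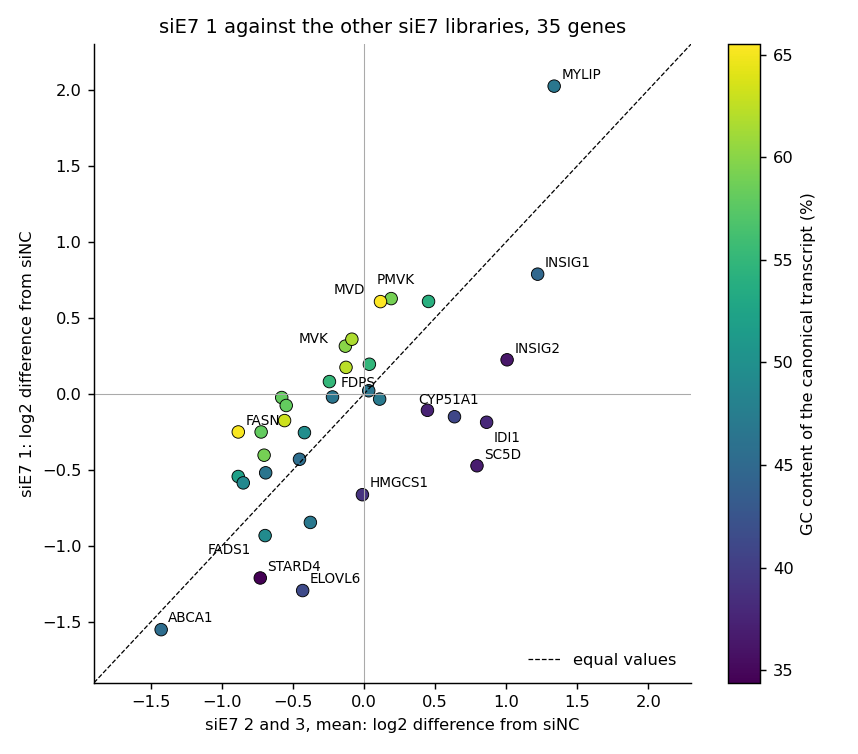
For the 35 genes the log2 difference from the siNC mean in siE7 1 (y axis) is plotted against the mean of that difference in siE7 2 and siE7 3 (x axis), and colour gives the GC content of the canonical transcript in percent. Genes of high GC content lie mostly above the dashed line of equal values and genes of low GC content mostly below it, with ABCA1 close to the line.

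The 3 genes with siE7 1 below and the other siE7 libraries above all siNC libraries were IDI1, CYP51A1 and SC5D, with a GC content of 36.9% to 41.0%. The opposite order was seen in MVK and FDPS, with 60.0% and 55.0%. Among all genes tested 8.50% had the first order and 4.92% the second. The log2 fold change itself followed GC content little, with r = -0.15 across the 35 genes and r = -0.05 across the tested genes, both as descriptions.

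Among the genes that sense and move sterols, both INSIG genes rose. INSIG1, at chr7:155297776-155310235, plus strand in GRCh38, stood at 5.47, 6.53 and 6.21 CPM in the siNC libraries and 10.5, 12.7 and 15.9 CPM in the siE7 libraries. It rose 2.15-fold with no overlap (log2 fold change 1.10, SE 0.19, adjusted p = 0.00126), kept its call in each alternative with a fit, and was higher in siE7 1 as well. INSIG2 stood at 5.55, 7.09 and 4.73 CPM in the siNC libraries and 6.68, 10.3 and 13.0 CPM in the siE7 libraries and rose (log2 fold change 0.79, SE 0.25, adjusted p = 0.031), although siE7 1 lay within the siNC range. Its call was lost without siE7 2 (adjusted p = 0.0703), without siE7 3 (adjusted p = 0.127), without siNC 1 (adjusted p = 0.102) and without siNC 3 (adjusted p = 0.135). INSIG1 is itself a known SREBP target, and in these libraries it went the other way from the fatty acid genes that are targets too.

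SREBF1, the gene of SREBP-1 and host of MIR33B, stood at 37.5, 40.0 and 38.1 CPM in the siNC libraries and 34.1, 27.5 and 24.9 CPM in the siE7 libraries. It fell by 25.3% without overlap (log2 fold change -0.42, SE 0.14, adjusted p = 0.0373). Its call was lost without siNC 1, siNC 2 and siNC 3 (adjusted p = 0.0963, 0.132 and 0.109) and without siE7 2 and siE7 3 (adjusted p = 0.109 and 0.138). SREBF2, whose promoter above holds the sterol regulatory element, stood at 107, 107 and 114 CPM in the siNC libraries and 103, 78.3 and 71.1 CPM in the siE7 libraries. All siE7 libraries were below all siNC libraries, with no call by edgeR over 6 libraries (log2 fold change -0.37, SE 0.14, adjusted p = 0.0611) and a call without siE7 1 (log2 fold change -0.61, SE 0.06, adjusted p = 7.66e-11). With the GC trend removed SREBF2 was also called lower (log2 fold change -0.36, SE 0.07, adjusted p = 0.000606), as it was by DESeq2 over 6 libraries (adjusted p = 0.0345). SCAP, the escort protein, stood at 20.8, 20.8 and 22.3 CPM in the siNC libraries and 27.3, 21.1 and 19.0 CPM in the siE7 libraries in overlapping groups (log2 fold change 0.08, SE 0.16, adjusted p = 0.723). STARD4, a soluble sterol carrier, stood at 7.70, 10.2 and 6.29 CPM in the siNC libraries and 3.37, 4.13 and 5.43 CPM in the siE7 libraries and fell by 46.4% (log2 fold change -0.90, SE 0.24, adjusted p = 0.0131). The call of STARD4 was lost without siNC 2 (adjusted p = 0.0786) and with library totals (adjusted p = 0.0519), as was that of SREBF1 with library totals (adjusted p = 0.109).

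The efflux genes did not move together. ABCA1, which loads cholesterol onto apolipoproteins and lies at chr9:104781006-104928155, minus strand in GRCh38, stood at 3.40, 3.68 and 3.14 CPM in the siNC libraries and 1.11, 1.20 and 1.24 CPM in the siE7 libraries. It fell to 0.348 of the siNC level with no overlap (log2 fold change -1.52, SE 0.24, adjusted p = 0.000603), from 83 to 92 counts per library with siNC to 33 to 38 with siE7. The call held in each alternative with a fit, and siE7 1 lay with siE7 2 and siE7 3. ABCG1, the exporter to mature lipoproteins, had 5 to 19 counts per library. Its levels were 0.203, 0.52 and 0.719 CPM in the siNC libraries and 0.506, 0.435 and 0.458 CPM in the siE7 libraries (log2 fold change -0.05, SE 0.49, adjusted p = 0.946), and no difference was detectable at this depth. MYLIP is no exporter but a ubiquitin ligase that lowers lipoprotein uptake, grouped here as a known LXR target. It stood at 0.77, 1.84 and 0.454 CPM in the siNC libraries and 3.78, 2.32 and 2.32 CPM in the siE7 libraries and rose (log2 fold change 1.46, SE 0.43, adjusted p = 0.0221), on 12 to 46 counts per library with siNC and 64 to 112 with siE7. Its call was lost without siNC 1 (adjusted p = 0.0873) and without siNC 3 (adjusted p = 0.0862).

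**Figure D4:**
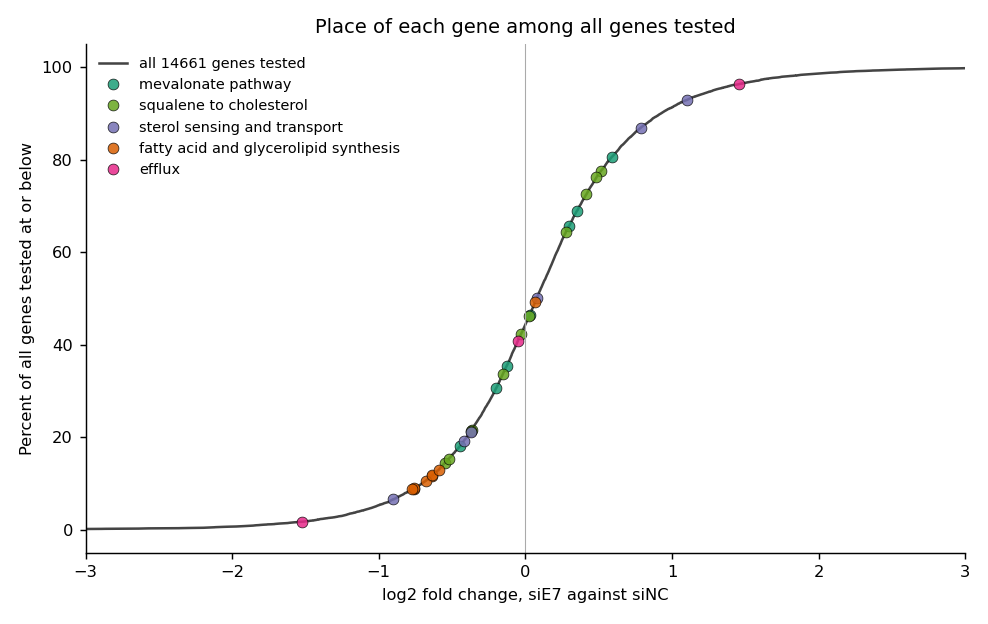
The curve gives the percent of all genes tested (y axis) at or below each log2 fold change of siE7 against siNC (x axis, shown from -3 to 3), and each point is 1 of the 35 genes, coloured by class. ACLY, ACACA, FASN, ELOVL6, SCD, FADS1 and FADS2 lie between 8.70% and 13.0%, and the sterol enzymes spread from 14.4% to 80.6%.

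Placed among all genes tested, ABCA1 was at 1.73% and STARD4 at 6.56% from the lower end, while INSIG1 was at 92.9% and MYLIP at 96.3%. The 7 called fatty acid genes lay within 8.70% to 13.0%, so their fold changes were alike and moderate rather than extreme. LPIN1 at 49.1% and SCAP at 50.2% lay at the middle.

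Divided by the length of the canonical transcript, the siNC levels of the 35 genes ran from 0.162 CPM per kb for ABCG1 to 111 for FDPS. In order, the highest were FDPS at 111 ± 4.29 CPM per kb (SD, n = 3), ACAT2 at 80.7 ± 2.48, ACLY at 72.2 ± 2.18, SCD at 69.5 ± 5.92 and FDFT1 at 58.4 ± 2.12 with siNC. ACLY and SCD did not differ beyond their spread in that order. With siE7, FDPS stood at 101 ± 13.8, ACAT2 at 59.2 ± 1.24, FDFT1 at 52.5 ± 4.55, PMVK at 50.5 ± 9.22, SCD at 44.7 ± 3.18 and ACLY at 42.5 ± 6.11 CPM per kb. ACLY thus went from rank 3 to rank 6 and FASN from rank 7 to rank 10, while PMVK went from rank 8 to rank 4. SREBF2 exceeded SREBF1 per length by a factor of 2.50 to 2.79 in the siNC libraries and 2.67 to 2.84 in the siE7 libraries, so their ratio overlapped between groups. The ratio of INSIG1 to INSIG2 per length was 1.13 to 1.61 with siNC and 1.50 to 1.92 with siE7, also overlapping.

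Outside the 35 genes, 84 other genes of lipid metabolism were tested, and 17 were called lower (20.2%) and 13 higher (15.5%), against the 16.0% and 18.0% of all genes tested. A further 3 were too low to be tested. Among the 13 regulators of SREBP processing and sterols, 3 were lower and 3 higher, 23.1% each. MBTPS1, the protease that makes the first cut of the SREBP precursors, stood at 99.3, 99.0 and 109 CPM in the siNC libraries and 64.5, 65.2 and 60.1 CPM in the siE7 libraries and fell (log2 fold change -0.70, SE 0.11, adjusted p = 0.000624). ERLIN2, a membrane protein of the degradation pathway in the endoplasmic reticulum, rose (log2 fold change 0.63, SE 0.12, adjusted p = 0.00181), as did RXRB, a partner receptor of the LXRs (log2 fold change 0.74, SE 0.15, adjusted p = 0.00342). Of the LXR genes, NR1H3 rose (log2 fold change 0.57, SE 0.18, adjusted p = 0.0286) from 7.65 to 11.3 CPM on average, and NR1H2 had no call (log2 fold change 0.03, SE 0.15, adjusted p = 0.875). NR1H3 lost its call without siNC 1, siNC 2, siNC 3 or siE7 2 (adjusted p = 0.0642, 0.103, 0.134 and 0.0534), and NR1H2 was called lower without siE7 1 (log2 fold change -0.22, adjusted p = 0.00253).

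Of 20 further genes that elongate, desaturate or activate fatty acids, 6 were lower and 3 higher. FADS3, the third gene of the desaturase cluster, stood at 109.9, 102 and 105 CPM in the siNC libraries and 56.4, 39.5 and 43.99 CPM in the siE7 libraries and fell (log2 fold change -1.18, SE 0.14, adjusted p = 0.000109). SCD5, the other stearoyl-CoA desaturase, stood at 15.6, 15.8 and 16.7 CPM in the siNC libraries and 6.68, 6.92 and 8.41 CPM in the siE7 libraries and fell (log2 fold change -1.13, SE 0.16, adjusted p = 0.000322). ELOVL7, an elongase, fell from 3.84 to 1.00 CPM on average (log2 fold change -1.94, SE 0.32, adjusted p = 0.00102). These 3 had the smallest p of the 9 calls, and the genes called higher include another elongase, ELOVL4, named after its values were seen (log2 fold change 0.46, SE 0.17, adjusted p = 0.0486).

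Among 12 genes of glycerolipid synthesis and lipid droplets, 2 were lower and 3 higher. PLIN2, the coat protein of lipid droplets, stood at 0.689, 0.921 and 0.454 CPM in the siNC libraries and 4.08, 3.44 and 3.40 CPM in the siE7 libraries and rose (log2 fold change 2.40, SE 0.30, adjusted p = 0.000143). MGLL, the lipase of monoglycerides, fell (log2 fold change -1.01, SE 0.13, adjusted p = 0.000188), and AGPAT1, an acyltransferase of phosphatidate synthesis, rose (log2 fold change 0.54, SE 0.12, adjusted p = 0.00442). Of 12 genes of fatty acid oxidation, 1 was lower and 1 higher, 8.33% each, and the other 10 had no call. PPARD, a nuclear receptor for fatty acids, fell (log2 fold change -0.76, SE 0.12, adjusted p = 0.000686). ETFDH, which passes electrons from acyl-CoA dehydrogenases to ubiquinone, rose (log2 fold change 1.14, SE 0.20, adjusted p = 0.0015).

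Of 12 genes of the isoprenoid branches that leave the sterol pathway, 1 was lower and 2 higher. These are 8.33% and 16.7%, against 16.0% and 18.0% of all genes tested. NUS1, a subunit of the dolichol synthase, fell (log2 fold change -1.02, SE 0.18, adjusted p = 0.00148). GGPS1, which makes geranylgeranyl diphosphate, rose (log2 fold change 0.86, SE 0.24, adjusted p = 0.0176), and so did PDSS2, a subunit of the synthase of the ubiquinone tail (log2 fold change 0.63, SE 0.19, adjusted p = 0.0223). GGPS1 lost its call without siNC 2, siNC 3, siE7 2 or siE7 3 (highest adjusted p = 0.0818), and PDSS2 without siNC 1, siNC 2, siNC 3 or siE7 2 (highest adjusted p = 0.109). Of 11 tested genes of sterol uptake, storage and transport, 3 were lower and 1 higher, or 27.3% and 9.09%. OSBP, an oxysterol-binding lipid exchanger, stood at 179.9, 175 and 182 CPM in the siNC libraries and 303, 288 and 282 CPM in the siE7 libraries and rose (log2 fold change 0.70, SE 0.10, adjusted p = 0.000384). LRP8, a lipoprotein receptor, fell (log2 fold change -0.57, SE 0.12, adjusted p = 0.00376), as did NPC2, a lysosomal sterol carrier (log2 fold change -0.39, SE 0.11, adjusted p = 0.019). The call of NPC2 was lost without each of siNC 1, siNC 2, siNC 3, siE7 2 and siE7 3, with adjusted p between 0.0563 and 0.0996, and with library totals (adjusted p = 0.0866).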

How the data were processed

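RNA sequencing of 6 SCC-9 libraries was used, 3 with siE7 and 3 with siNC. The authors deposited whole-number counts of reads per gene without normalization. They describe stranded poly(A) libraries and paired reads of 150 bases, and the submitters' processing notes name HISAT2, DESeq2 and GRCh38. The counting tool, the annotation release and the use of strand are not given in the sources used here. Groups came from the sample titles. Genes were filtered with filterByExpr, scaled by TMM and tested with glmQLFit (robust) and glmQLFTest of edgeR 4.0.16 in R 4.3.3, with group as the only term and Benjamini-Hochberg adjustment over 14661 genes. Positive fold changes are higher in siE7. The tests were checked on simulated counts with the same spread in every library. For the main test no simulated library stood apart as siE7 1 does, so the check does not cover that case. The smallest p of an exact permutation test of 3 against 3 is 0.1, so none was used for single genes. Library totals of 25608192 to 29550264 counts set the precision, and genes under 1 CPM rest on few counts.

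Alternatives were DESeq2 1.42.0, scaling by RLE, by the upper quartile or by library totals, no filter, at least 10 counts in every library, a replicate block, a log2 fold change beyond 1, and each library left out. Removal of each library's GC trend (lowess, span 0.3) was added after seeing the data. Gene positions, length, GC content and overlaps come from GENCODE v44 on GRCh38, in which 25283 of the 25349 identifiers were matched without their version number. Promoters are from RefSeq. The named genes are the 35, MKI67, NR1H2, NR1H3 and, from each further lipid list, up to 3 called genes with the smallest p. A gene that met this rule is not reported here. Genes and lists were chosen with earlier results of these data known, so no list has a test of its own. THRSP, PTPRC, CD3E and ADIPOQ were not analysed here. Figures were drawn with matplotlib 3.10.9 in Python 3.11.15.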

Additional observations from a re-analysis of the deposited data

How the results depend on the processing

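No called fold change among the 35 genes changed direction under any alternative. Of the 17 calls, 8 held in all 14 alternatives with a fit (ACAT2, INSIG1, ACLY, ACACA, FASN, SCD, FADS1 and ABCA1), and 11 genes without a call gained one in at least 1. NR1H2 ran from -0.22, without siE7 replicate 1, to 0.13 when single libraries were left out. MKI67 ran from -3.27 to -3.04. With library totals, 8 of the 35 were lower and 5 higher, of the sterol enzymes 2 lower and 2 higher, of the sensing genes 0 lower, and of the other lipid genes 22 higher, with 27.5% of all genes higher. Without the filter, 5 of the 35 and 2 sterol enzymes were higher, with 10.0% of all genes lower and 11.6% higher. With the GC trend removed, 7 of the 35 and 4 sterol enzymes were higher, and 30 other lipid genes and 26.1% of all genes were lower. With a log2 fold change beyond 1, 1 of the 35 was lower and 2 higher, with 0 sterol enzymes, 0 sensing genes and 0 fatty acid genes lower, 1 sensing gene higher, and 8 other lipid genes lower and 2 higher. Leaving out each library gave 7 to 18 of the 35 lower and 1 to 7 higher, 1 to 7 sterol enzymes lower and 0 to 4 higher, 0 to 3 sensing genes lower and 1 to 2 higher, 5 to 7 fatty acid genes lower, 0 to 1 efflux genes higher, 11 to 34 other lipid genes lower and 7 to 21 higher, and 10.3% to 29.5% of all genes lower and 10.6% to 28.9% higher. The high ends came without siE7 1. The cause was not tested.

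The replicate numbers did not pair the libraries, since deviations of same-numbered libraries correlated at -0.05 to -0.02 and no library correlated best with its own number. With the replicate block, 14 of the 35 were lower and 4 higher, and of the sterol enzymes 3 were lower and 1 higher. In that fit 16.1% of all genes were lower and 17.7% higher. Depth limits TM7SF2, EBP, ABCA1, ABCG1 and MYLIP, with under 50 counts in at least 1 library.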
